A study of Mus musculus with 10 samples.

Results

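The chemokines and their classical receptors were examined in the hippocampus of mice made to overexpress PGC-1α in neurons. Members were the genes named Ccl, Cxcl, Ccr or Cxcr with a number, together with Cx3cl1, Xcl1 and Xcr1, while the receptor Cx3cr1 was kept apart. RefSeq lists 57 such symbols, and 52 of them had a probe named here among the 23462 named genes of the array, comprising 35 ligands and 17 receptors. Ccl21b, Ccl21c, Ccl21d, Ccl27b and Cxcl11 had none. Each gene was represented by its brightest probe, and 11 genes had several probes. A level is the log2 signal relative to the 75th percentile of its array, so that 0 equals this percentile, and levels are compared between arrays and never between genes.

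Chemokines are small secreted proteins that direct the movement of leukocytes along a concentration gradient, and their receptors are G protein-coupled receptors that act mainly through inhibitory G proteins. Homeostatic members such as Cxcl12 and Ccl21a are made constantly and guide cell traffic and development, whereas inflammatory members such as Ccl2, Ccl3 and Cxcl10 are induced by cytokines through NF-kB, interferon signalling or both. In the healthy brain, neurons make Cx3cl1, the ligand that microglia sense through Cx3cr1, and most inflammatory members are low in the parenchyma, with further sources in the meninges, vessels, choroid plexus and blood.

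Total RNA of the whole hippocampus was hybridised to 1-colour arrays, 5 per group. All mice were labelled as males of 12 weeks, had a C57BL/6 background, and were studied under basal conditions without carotid stenosis. The PGC-1αf/f mice carried a PGC-1α transgene at Rosa26 behind a floxed PGK-neo-STOP cassette and lacked Cre. The nPGC-1α mice carried the same transgene plus Eno2-Cre, in which the promoter of neuron-specific enolase drives Cre, and co-expressed IRES-eGFP. The labels give the cell type as neuron, but the RNA came from the tissue. Of its marker lists, all 8 hippocampal neuron, 12 microglia, 8 border macrophage, 8 endothelial and 8 meningeal fibroblast genes and 7 of 8 choroid plexus genes were well above background on every array. In such bulk samples, fewer cells of a type and less RNA per cell cannot be told apart.

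The measured level of the overexpressed gene did not separate the labels. The level of Ppargc1a was 2.20 ± 0.08 (SD, n = 5) on the arrays labelled PGC-1αf/f and 2.20 ± 0.11 (SD, n = 5) on those labelled nPGC-1α, a difference of 0.00 with an adjusted p of 0.99. Whether its probe matches the transgene is not given in the sources used here. Although every mouse was labelled male, Kdm5d, Uty and Ddx3y, which lie on the Y chromosome, were detected together on 4 arrays (PGC-1αf/f 1 and nPGC-1α 1, 3 and 5) and not on the other 6. The share of gene spots well above background was 79% ± 2.79 (SD, n = 5) for PGC-1αf/f and 71.2% ± 2.57 (SD, n = 5) for nPGC-1α, without overlap (exact permutation test, two-sided, p = 0.00794, the smallest that 5 against 5 arrays can give). Slide 1 carried replicates 1 to 4, each group in a row of its own, and slide 2 carried replicate 5 of each group. All differences below therefore stand for arrays labelled nPGC-1α minus arrays labelled PGC-1αf/f. The labels number the replicates without naming animals, so that p-values measure the spread between these arrays.

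Of the 52 members, 31 were well above background on all 10 arrays, 11 on some arrays and 10 on 0 arrays. The first set held Cx3cl1, Cxcl12, Cxcl14, Cxcl16, Ccl2, Ccl3, Ccl4, Ccl5, Ccl8, Ccl12, Cxcl10, Ccr2 and Cxcr4, among others. The 10 members below background throughout were Ccl1, Ccl20, Ccl22, Ccl26, Ccr3, Ccr4, Cxcl3, Cxcl15, Cxcr1 and Cxcr5. The filter required detection on all 5 arrays of at least 1 group, and 34 members passed it, of which 23 were ligands and 11 receptors.

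Few members differed between the groups. At an unadjusted p below 0.05, 3 of the 34 tested members were higher in nPGC-1α (Ccl21a, Cxcl12 and Ccl3), beside 3.39% of all 39142 probes. Lower were 2 (Ccl11 and Cxcr3), beside 8.52% of all probes. Both lower members passed the filter only through PGC-1αf/f, where they were higher. They were detected on 3 and 2 nPGC-1α arrays, so that these calls rest partly on values not above background. At an adjusted p below 0.05, 0 members were called, beside 0.00255% of all probes, and 5 members passed the unadjusted threshold of the same limma fit. The smallest adjusted p of a member was 0.179, for Ccl21a. No member's groups were free of overlap, beside 2.74% of the probes with a value on every array. With the class of Y-linked transcripts as a block, 2 members were higher (Ccl21a and Cxcl12) and 2 lower (Cxcr3 and Cxcr6). The median difference was -0.04 over the tested members and -0.04 over all probes tested, with 16 members above 0 and 18 below. Among the 31 members detected on every array, the same 3 were higher and 0 were lower, beside 3.72% and 6.25% of all such probes, and their median difference was 0.01 against -0.03 for those probes. The plot of differences shows intervals over 2 log2 units wide for several inflammatory members.

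**Figure D1:**
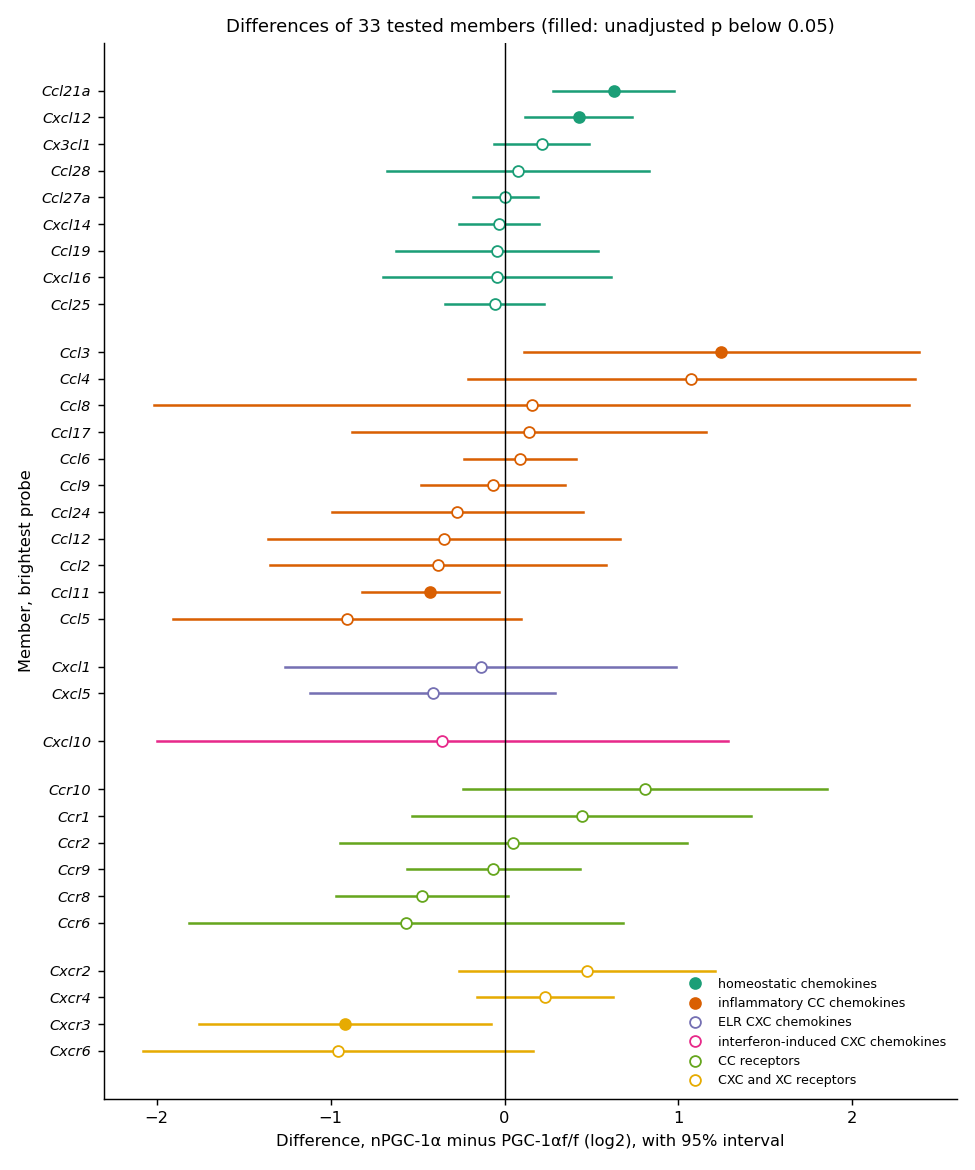
Difference between groups (log2, nPGC-1α minus PGC-1αf/f) of 33 of the 34 tested members by class, with its 95% interval from limma; filled points had an unadjusted p below 0.05. Ccl21a, Cxcl12 and Ccl3 lie above 0, Ccl11 and Cxcr3 below, and the interval of Ccl8 runs from -2.02 to 2.33.

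Among the homeostatic ligands, 9 of the 11 on the array were tested, 2 were higher in nPGC-1α and 0 were lower. Of all probes, 3.39% were higher and 8.52% lower. Ccl21a, a ligand of Ccr7 that lymphatic vessels and lymphoid stroma produce, had levels of 1.29, 0.74, 0.66, 0.67 and 0.78 on PGC-1αf/f arrays 1 to 5 and of 1.04, 1.65, 1.72, 1.52 and 1.36 on nPGC-1α arrays 1 to 5. All nPGC-1α arrays were above the PGC-1αf/f mean, and PGC-1αf/f 1 reached into their range. The difference was 0.63 (SE 0.16, 95% interval 0.28 to 0.98), or 1.54-fold, with an unadjusted p of 0.0023. The probe cannot be assumed to separate Ccl21a from its near-identical copies Ccl21b, Ccl21c and Ccl21d. On the 4 arrays with Y-linked transcripts alone, where PGC-1αf/f 1 was the only array of its group, the difference was 0.08 (adjusted p = 0.933), and it was above 0 with an unadjusted p below 0.05 in the other 25 settings tried.

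Cxcl12, the ligand of Cxcr4 and Ackr3 that retains and guides neuronal and blood precursors, had levels of 0.97, 0.79, 0.82, 0.85 and 1.36 in PGC-1αf/f and of 1.51, 1.25, 1.15, 1.32 and 1.70 in nPGC-1α, in replicate order. Of the PGC-1αf/f arrays, only array 5 reached the nPGC-1α range. The difference was 0.43 (SE 0.14, 95% interval 0.12 to 0.73), or 1.34-fold, with an unadjusted p of 0.0109 and an adjusted p of 0.275. A second, dimmer Cxcl12 probe differed by -0.03 (SE 0.12), and with both probes averaged the difference was 0.20 (adjusted p = 0.527). Of its receptors, Cxcr4 differed by 0.23 (SE 0.18, adjusted p = 0.626) and Ackr3, which scavenges Cxcl12, by 0.02 (adjusted p = 0.959).

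**Figure D2:**
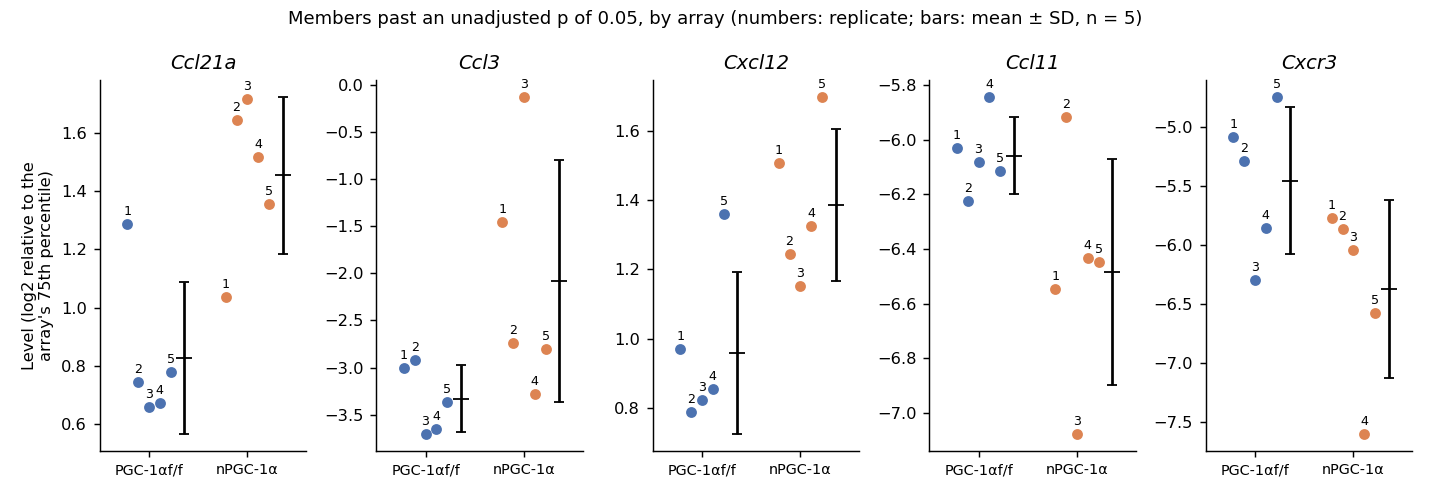
Level per array (log2 relative to the 75th percentile of the array, own axis per gene) of the 5 members with an unadjusted p below 0.05; numbers give the replicate, and bars the mean ± SD of 5 arrays. PGC-1αf/f 1 lies inside the nPGC-1α range of Ccl21a, and nPGC-1α 3 lies at -0.13 for Ccl3.

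The other tested homeostatic ligands were not called. Cx3cl1, the neuronal ligand tethered to the membrane, ranged from 2.08 to 2.72 in PGC-1αf/f and from 2.57 to 2.74 in nPGC-1α, a difference of 0.21 (SE 0.12, adjusted p = 0.523). The difference was 0.31 after normexp background correction, with an unadjusted p of 0.0156, 0.28 without PGC-1αf/f 4, with an unadjusted p of 0.0388, and 0.12 without PGC-1αf/f 2. Its receptor Cx3cr1 differed by 0.00 (adjusted p = 0.995). Ccl27a differed by 0.01, Cxcl14 by -0.03, Ccl25 by -0.06, Ccl19, the other Ccr7 ligand, by -0.04, Cxcl16 by -0.04 and Ccl28 by 0.08, with unadjusted p from 0.676 to 0.948. For Ccl27a, whose probe varied least, the 95% interval of the difference ran from -0.18 to 0.19, whereas it ran from -0.68 to 0.83 for Ccl28, from -0.70 to 0.61 for Cxcl16 and from -0.62 to 0.54 for Ccl19.

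Of the 16 inflammatory CC ligands, 11 were tested, 1 was higher and 1 was lower, beside 3.39% and 8.52% of all probes. Ccl3, a ligand of Ccr1 made by activated myeloid cells, had levels of -3.01, -2.92, -3.70, -3.65 and -3.36 on the PGC-1αf/f arrays and of -1.45, -2.74, -0.13, -3.28 and -2.80 on the nPGC-1α arrays. The nPGC-1α arrays 1 and 3 stood above all others, and array 4 lay within the PGC-1αf/f range. The difference was 1.25 (SE 0.51, 95% interval 0.11 to 2.38), or 2.37-fold, with an unadjusted p of 0.0339 and an adjusted p of 0.377. It was 0.76 without nPGC-1α 3, with an unadjusted p of 0.046, and 1.09 without nPGC-1α 1, with an unadjusted p of 0.0787. Leaving out PGC-1αf/f 3, 4 or 5 alone gave 1.15 to 1.24, with unadjusted p of 0.0563 to 0.07. With PGC-1αf/f 1 and nPGC-1α 1 and 3 left out together, a choice made after seeing the data, it was 0.47, with an unadjusted p of 0.0718, and with the class of Y-linked transcripts as a block it was 0.81, with an unadjusted p of 0.126. The difference was 1.42 within slide 1 and 0.56 between the 2 arrays of slide 2.

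Ccl4, which neighbours Ccl3 in the genome, followed the same arrays. It had levels of -4.39, -4.07, -5.46, -5.64 and -4.58 on the PGC-1αf/f arrays and of -4.23, -1.87, -4.99 and -3.91 on nPGC-1α 2 to 5, where nPGC-1α 1 was left out as an outlier spot. The difference of 1.07 (SE 0.58, adjusted p = 0.496) did not pass the threshold, and a second probe, measured on all arrays, differed by 1.41 (adjusted p = 0.429). It was 0.45 without nPGC-1α 3, 1.49 without nPGC-1α 4, with an unadjusted p of 0.0259, and 1.51 with outlier spots kept, with an unadjusted p of 0.0368. Over the arrays, Ccl3 and Ccl4 correlated at r = 0.96 and rho = 0.92 (9 arrays, exact permutation test, adjusted p = 0.000423 and 0.00262). The correlation was 0.92 without the 2 arrays farthest out in Ccl3. Of the marker lists, that of the choroid plexus also peaked on nPGC-1α 3, with a median deviation of 2.45, and was next highest on PGC-1αf/f 4 (1.83), where Ccl4 was lowest. It ranged from -0.96 to 1.83 in PGC-1αf/f and from -0.85 to 2.45 in nPGC-1α. The summed signal of its markers, without outlier spots, ran from 1.56 to 11.6 times the 75th percentile in PGC-1αf/f and from 1.83 to 10.1 times in nPGC-1α. Ttr was 2.54 on PGC-1αf/f 4 but was left out as an outlier spot on nPGC-1α 3. The sums of these arrays therefore do not cover the same markers. The part of the choroid plexus markers in the result was not tested.

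Outside the CC family, Cxcl2 and Il1b, genes of activated myeloid cells, were highest on the same arrays. Not every such gene was, since Cxcl1 was highest on PGC-1αf/f 1 (-2.72). The neutrophil attractant Cxcl2, named here after its values were seen, was detected on 2 arrays of PGC-1αf/f and 3 of nPGC-1α, which left it untested. Its highest levels were -2.69 on nPGC-1α 3 and -4.34 on nPGC-1α 1, and the PGC-1αf/f arrays lay between -9.68 and -5.86. Its correlation with Ccl3 is not given singly, because Cxcl2 was below background on 5 of 10 arrays, but it is plotted and counted among the relations below. Il1b, the NF-kB-induced cytokine, was also highest on nPGC-1α 3 (0.38) and nPGC-1α 1 (-0.40) and differed by 1.18 (SE 0.64, adjusted p = 0.498), or by 1.48 in a second probe, with an unadjusted p of 0.042. It correlated with Ccl3 at r = 0.92 and rho = 0.90 (permutation test, adjusted p = 0.0003 and 0.00222), and at 0.79 without these 2 arrays. The median deviation of 6 tested neutrophil markers was 1.58 on nPGC-1α 1, 1.11 on nPGC-1α 3 and 0.98 on PGC-1αf/f 1, ranged from -2.45 to 0.98 in PGC-1αf/f and from -0.50 to 1.58 in nPGC-1α, and correlated with Ccl3 at r = 0.68 (permutation test, adjusted p = 0.0522) and rho = 0.81 (adjusted p = 0.0134). All 7 neutrophil markers were well above background on every array. Their summed signal, without outlier spots, ran from 1.97 to 14.1 times the 75th percentile in PGC-1αf/f and from 5.06 to 14.3 times in nPGC-1α. S100a8 was left out on nPGC-1α 1, and Ly6g had values on 3 PGC-1αf/f and 2 nPGC-1α arrays. The sums therefore do not cover the same markers on all arrays. The part of these markers in the result was not tested.

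**Figure D3:**
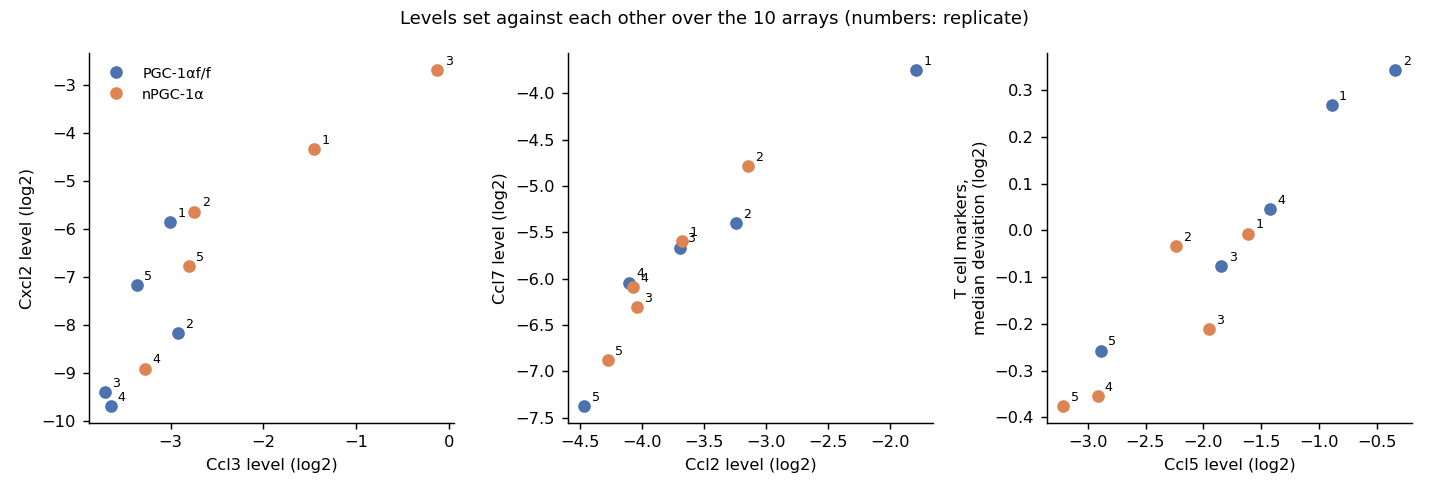
Each point is 1 of 10 arrays, with its replicate number: Cxcl2 against Ccl3 level, Ccl7 against Ccl2 level, and the median deviation of 6 T cell markers from their means against Ccl5 level (all log2). nPGC-1α 3 and 1 are highest for Ccl3 and Cxcl2, PGC-1αf/f 1 is highest for Ccl2 and Ccl7, and PGC-1αf/f 2 and 1 are highest for Ccl5.

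The start regions of Ccl3 and Cxcl2 are shown because both genes were highest on nPGC-1α 3 and 1. RefSeq (GRCm38.p6) gave such regions for 38 of the 52 members, 42 in all. The 250 bases before each start were searched on both strands for the kB consensus, the element bound by NF-kB, for TATAAA, the TATA box, for TGANTCA, the AP-1 element, and for the interferon response element (GAAA, any 2 bases, GAAA). The capitals mark the kB match of Cxcl2 (overlapping matches are merged), and the Ccl3 window (minus strand) held no match to any of the motifs. A match to kB stood in 10 of the 42 member regions (23.8%) and in 7.25% of 32851 regions of all genes.
Cxcl2, chr5:90903649-90903898, plus strand: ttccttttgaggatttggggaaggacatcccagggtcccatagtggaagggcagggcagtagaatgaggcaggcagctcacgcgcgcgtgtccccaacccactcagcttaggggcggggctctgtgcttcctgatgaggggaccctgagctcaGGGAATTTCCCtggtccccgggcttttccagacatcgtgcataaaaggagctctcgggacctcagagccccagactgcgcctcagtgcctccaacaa
Ccl3, chr11:83649379-83649628, minus strand: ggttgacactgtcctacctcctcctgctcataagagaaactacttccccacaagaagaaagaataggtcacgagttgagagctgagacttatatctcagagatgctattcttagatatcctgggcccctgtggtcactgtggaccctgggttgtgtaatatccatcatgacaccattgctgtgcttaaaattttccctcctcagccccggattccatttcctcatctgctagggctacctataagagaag

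Ccl5, an attractant that T cells produce, was lower on average in nPGC-1α without passing the threshold. Its levels were -0.89, -0.34, -1.84, -1.42 and -2.89 on the PGC-1αf/f arrays and -1.61, -2.23, -1.95, -2.91 and -3.21 on the nPGC-1α arrays, with wide overlap. The difference was -0.91 (SE 0.45, 95% interval -1.91 to 0.09, adjusted p = 0.464), with an unadjusted p of 0.0712, or of 0.0173 with slide as a block. Leaving out 1 array gave -1.26 to -0.62, with an unadjusted p below 0.05 in 2 of 10 cases. Without PGC-1αf/f 2, its highest array, the Ccl5 difference was -0.62, with an unadjusted p of 0.177. Cxcr6, a receptor of resident T cells, had levels from -5.80 to -2.93 in PGC-1αf/f and from -6.27 to -4.87 in nPGC-1α, a difference of -0.96 (SE 0.51, adjusted p = 0.489), while a second probe differed by -1.01 (adjusted p = 0.423). Its unadjusted p was 0.0873, but 0.0339 with slide as a block, 0.0403 with the class of Y-linked transcripts as a block, 0.0414 within slide 1, where the difference was -1.08, and 0.0175 without PGC-1αf/f 5, where it was -1.31. Without PGC-1αf/f 1, its highest array, the difference was -0.59, with an unadjusted p of 0.22. Ccl5 and Cxcr6 correlated at r = 0.92 and rho = 0.95 over 10 arrays (permutation test, adjusted p = 0.00045 and 0.0004; r = 0.87 over the 8 arrays of slide 1). The median deviation of 6 T cell markers correlated with Ccl5 at r = 0.96 and rho = 0.96 (permutation test, adjusted p = 0.0002 and 0.0004; 0.92 without the 2 arrays farthest out) and with Cxcr6 at r = 0.93 and rho = 0.95 (permutation test, both adjusted p = 0.0004; 0.93 without the 2 arrays farthest out). This deviation was 0.34 on PGC-1αf/f 2 and 0.27 on PGC-1αf/f 1, and ran from -0.26 to 0.34 in PGC-1αf/f and from -0.38 to -0.01 in nPGC-1α. Of the 7 listed markers, 6 were on the array, of which 5 were detected on every array and 0 were undetected throughout. Their summed signal was 0.403 to 0.609 times the 75th percentile in PGC-1αf/f and 0.356 to 0.672 times in nPGC-1α. Cd4 stood at -1.50 on nPGC-1α 3, against -4.68 to -4.23 on the other arrays, and weighs heavily in the sum there. The part of these markers in the result was not tested.

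The monocyte attractants Ccl2, Ccl7, Ccl8 and Ccl12 showed a spread within the groups that exceeded the differences between them. Ccl8 spanned 4.80 over the arrays, the widest range of a tested member, with -0.79, -3.67, -4.96, -4.38 and -5.54 on the PGC-1αf/f arrays and -1.85, -3.47, -3.93 and -5.59 on nPGC-1α 1 to 4. Ccl2, the main ligand of Ccr2, was -1.79 on PGC-1αf/f 1 and between -4.47 and -3.15 on the other 9 arrays. Ccl12 was -1.13 and -1.22 on PGC-1αf/f 1 and 2 and at most -1.97 on the other 8. The group differences were 0.15 (SE 0.97) for Ccl8, -0.38 (SE 0.44) for Ccl2 and -0.35 (SE 0.46) for Ccl12, with unadjusted p of 0.877, 0.4 and 0.467. Each of these 3 members was highest on PGC-1αf/f 1, and the groups overlapped widely.

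These ligands lie in 1 gene cluster and varied together. Over 10 arrays, Ccl2 correlated with Ccl7 at r = 0.95 and rho = 0.95 (permutation test, adjusted p = 0.0002, from the smallest p the permutations can give, 1e-05, and 0.0004; r = 0.91 without PGC-1αf/f 1 and nPGC-1α 2) and with Ccl12 at r = 0.88 and rho = 0.93 (permutation test, adjusted p = 0.0003 and 0.00096; 0.92 without these arrays). Ccl7, detected on 4 arrays of PGC-1αf/f and 3 of nPGC-1α, was not tested, and its correlation rests partly on values not above background. Ccl8 and Ccl12 correlated at r = 0.76 and rho = 0.92 over 9 arrays (exact permutation test, adjusted p = 0.0318 and 0.00262; 0.81 without PGC-1αf/f 1 and nPGC-1α 1). The start regions of Ccl8 and Ccl12 each held TATAAA, marked in capitals, which stood in 11 of 42 member regions (26.2%) and in 12.4% of all regions.
Ccl8, chr11:82114935-82115184, plus strand: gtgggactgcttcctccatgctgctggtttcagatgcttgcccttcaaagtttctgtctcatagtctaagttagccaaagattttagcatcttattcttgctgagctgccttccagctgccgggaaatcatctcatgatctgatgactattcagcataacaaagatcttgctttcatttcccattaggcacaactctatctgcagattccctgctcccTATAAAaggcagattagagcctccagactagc
Ccl12, chr11:82101595-82101844, plus strand: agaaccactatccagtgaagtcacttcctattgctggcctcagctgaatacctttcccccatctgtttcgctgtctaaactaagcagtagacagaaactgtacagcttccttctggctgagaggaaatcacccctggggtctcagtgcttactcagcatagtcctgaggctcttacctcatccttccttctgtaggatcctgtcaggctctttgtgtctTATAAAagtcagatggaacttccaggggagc

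Markers of meningeal fibroblasts, which belong to the coverings of the brain, moved with Ccl2 and Ccl8. The median deviation of 8 such markers was highest on PGC-1αf/f 1 (0.44) and lowest on PGC-1αf/f 5 (-0.96), with -0.34 to 0.31 in nPGC-1α. It correlated with Ccl2 at rho = 0.93 and r = 0.72 (permutation test, adjusted p = 0.0014 and 0.0589) and with Ccl8 at rho = 0.75 and r = 0.66 over 9 arrays (exact permutation test, adjusted p = 0.0364 and 0.0685). All 8 markers were detected on every array. Their summed signal, without outlier spots, was 9.10 to 20.9 times the 75th percentile in PGC-1αf/f and 14.5 to 18.4 times in nPGC-1α. Ogn was left out as an outlier spot on PGC-1αf/f 1, so that the sum of this array lacks it. The part of these markers in the result was not tested. The range of border macrophage markers was also wide, from -0.86 on PGC-1αf/f 5 to 0.59 on PGC-1αf/f 1, against -0.24 to 0.34 in nPGC-1α.

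Ccl11, the eosinophil attractant, was the inflammatory ligand that was lower in nPGC-1α. Its levels were -6.03, -6.22, -6.08, -5.84 and -6.12 on the PGC-1αf/f arrays and -6.55, -5.92, -7.08, -6.43 and -6.45 on the nPGC-1α arrays, and nPGC-1α 2 lay inside the PGC-1αf/f range. The difference was -0.43 (SE 0.18, 95% interval -0.82 to -0.03), with an unadjusted p of 0.0372 and an adjusted p of 0.387. Ccl11 was detected on 5 arrays of PGC-1αf/f and 3 of nPGC-1α. All its levels lay below the common floor of -5.75. Raising every value to that floor therefore gave 0.00 by construction and could not show a difference. Leaving out 1 array gave -0.57 to -0.28, with an unadjusted p below 0.05 in 2 of 10 cases, without PGC-1αf/f 2 or nPGC-1α 2. Ccl17, Ccl24, Ccl6 and Ccl9 differed by 0.14, -0.27, 0.09 and -0.07, with unadjusted p from 0.427 to 0.768.

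Among the 5 ELR CXC ligands, which attract neutrophils through Cxcr2, Cxcl1 and Cxcl5 were tested and 0 were called. Cxcl1 was -2.72 on PGC-1αf/f 1 and between -5.63 and -3.95 on the other 9 arrays, a difference of -0.14 (SE 0.51, adjusted p = 0.932). Cxcl5 was lowest where Cxcl1 was highest, at -4.63 on PGC-1αf/f 1, and it differed by -0.41 (SE 0.32, adjusted p = 0.629). Without that array, its difference was -0.70, with an unadjusted p of 0.0107.

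Of the interferon-induced ligands of Cxcr3, Cxcl10 was detected on every array. Its levels were -0.88, -2.88, -3.17 and -5.03 on PGC-1αf/f 2 to 5, with array 1 left out as an outlier spot, and -3.50, -3.27, -2.21, -3.06 and -4.68 in nPGC-1α. The difference was -0.36 (SE 0.74, adjusted p = 0.869), and its 95% interval reached up to 1.29. Cxcl9, named after its values were seen, was detected on PGC-1αf/f 1 and 2 and on nPGC-1α 1 alone, with levels of -3.18, -4.59 and -5.45. The interferon-linked factors Irf7 and Irf1 differed by -0.32 and -0.12, with unadjusted p of 0.347 and 0.431. A second, dimmer Irf1 probe, detected on 5 arrays of PGC-1αf/f and 4 of nPGC-1α, differed by -0.66 (adjusted p = 0.372), with an unadjusted p of 0.0331. The start region of Cxcl10 is shown because it held matches to kB, the interferon response element and TGANTCA, in capitals, and the latter pair stood in 2.98% and 6.75% of all regions.
Cxcl10, chr5:92348890-92349139, minus strand: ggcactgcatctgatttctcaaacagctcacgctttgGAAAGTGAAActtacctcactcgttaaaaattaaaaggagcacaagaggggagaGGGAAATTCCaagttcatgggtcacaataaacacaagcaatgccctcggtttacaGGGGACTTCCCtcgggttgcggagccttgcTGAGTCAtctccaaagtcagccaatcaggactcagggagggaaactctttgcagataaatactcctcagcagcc

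Of the 10 CC receptors, 7 were tested and 0 were called. Ccr2, the receptor of Ccl2 on inflammatory monocytes, differed by 0.05 (SE 0.45). Ccr1 was -3.67 on PGC-1αf/f 1 and between -6.27 and -5.36 on the other 4 PGC-1αf/f arrays, against -5.67 to -4.45 in nPGC-1α, and differed by 0.44 (SE 0.44, adjusted p = 0.708). Without PGC-1αf/f 1 its difference was 0.87, with an unadjusted p of 0.011. Ccr10, which binds Ccl27a and Ccl28, differed by 0.81 (SE 0.47, adjusted p = 0.528), with -3.00 and -3.72 on nPGC-1α 2 and 3 against -5.75 to -4.92 on the other 8 arrays. Ccr6, the receptor of Ccl20, stood at -1.92 on PGC-1αf/f 4 and between -5.37 and -4.75 on the other 9. Ccr9, the receptor of Ccl25, differed by -0.06 (SE 0.23).

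Ccr8 was detected on every PGC-1αf/f array and on 0 of the nPGC-1α group. Its levels were -7.14 to -6.52 in PGC-1αf/f and -8.07 to -6.85 in nPGC-1α, a difference of -0.47 (SE 0.23, adjusted p = 0.441). No fold bound could be given for it, because the lowest signal that counted as detected on the nPGC-1α arrays, -6.26 on average, lay above the PGC-1αf/f mean of -6.79.

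Of the 7 CXC and XC receptors, 4 were tested and 1 was lower, beside 8.52% of all probes. Cxcr3, the receptor of Cxcl9 and Cxcl10 on activated T cells, had levels of -5.09, -5.29, -6.30, -5.86 and -4.74 on the PGC-1αf/f arrays and of -5.77, -5.87, -6.04, -7.60 and -6.58 on the nPGC-1α arrays. The groups overlapped, since PGC-1αf/f 3 lay below 3 nPGC-1α arrays. The difference was -0.92 (SE 0.38, 95% interval -1.76 to -0.08), with an unadjusted p of 0.0346 and an adjusted p of 0.379. It was -0.69 within slide 1, with an unadjusted p of 0.145, and -0.83 after quantile normalisation, with an unadjusted p of 0.058. It no longer passed the threshold without PGC-1αf/f 1, 2 or 5 or nPGC-1α 4 or 5, at -0.88 to -0.61. Cxcr3 was detected on all 5 arrays of PGC-1αf/f but on 2 of nPGC-1α, and its nPGC-1α mean of -6.37 lay under the detection limit of -6.26, so that no fold is given. With every value raised to a common floor the difference was -0.42, and after normexp background correction -0.34. Cxcr2, the receptor of neutrophils, differed by 0.47 (SE 0.33, adjusted p = 0.599).

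Detection was lower on the nPGC-1α arrays over all gene spots (71.2% against 79%), and also for the dim members. Among the 11 detected on some arrays, 10 were detected on more PGC-1αf/f than nPGC-1α arrays, and Cxcl2 on more nPGC-1α arrays. No such count over all partly detected probes is given here, so that this is not read as a trait of the members. Ccr7, Ccr8, Cxcl13, Cxcl17, Xcl1 and Xcr1, named together as the 6 members detected on 0 nPGC-1α arrays, had higher PGC-1αf/f means, but all these means lay under the nPGC-1α detection limit, so that no fold is given. The share of members detected was 74.2% ± 3.99 (SD, n = 5) in PGC-1αf/f and 64.2% ± 2.92 (SD, n = 5) in nPGC-1α (exact permutation test, two-sided, p = 0.0238, adjusted p = 0.0317 over 4 measures). The lowest detected signal was 29.5 ± 6.85 (SD, n = 5) units in PGC-1αf/f and 64.8 ± 19.1 (SD, n = 5) units in nPGC-1α (exact permutation test, p = 0.00794, adjusted p = 0.0159), and the detection of all spots differed in the same direction. The 10 members detected on 0 arrays all had a higher mean in nPGC-1α, but their levels, from -9.84 to -6.25, are background signal. No share over all undetected probes is given, so that this is not read as a result about the members.

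**Figure D4:**
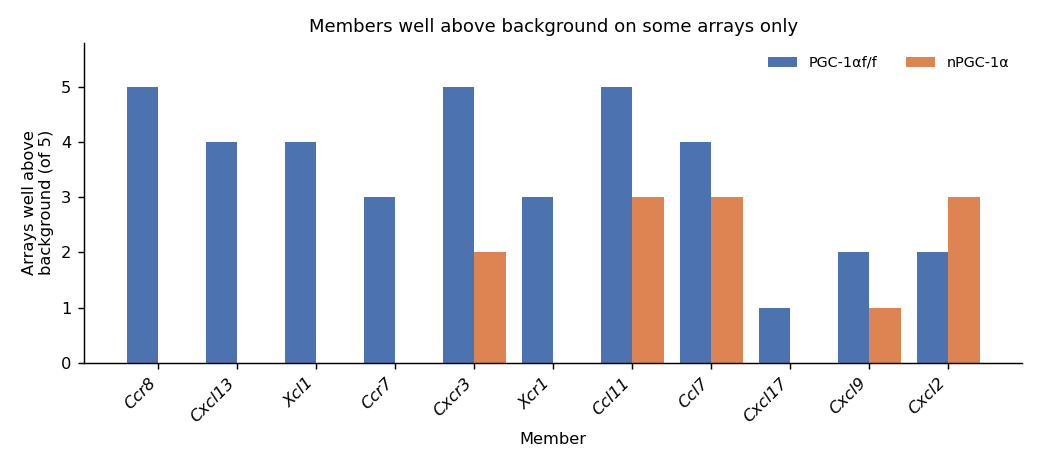
Number of arrays, of 5 per group, on which each of 11 partly detected members was well above background. In 10 members the PGC-1αf/f bar is the higher, and Cxcl2 has 2 PGC-1αf/f and 3 nPGC-1α arrays.

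The members varied more between the arrays of a group than most probes did. The within-group SD had a median of 0.605 over the 31 members detected on every array and of 0.21 over 34491 probes detected likewise. It exceeded 0.5 in 19 of the 31 members and in 6.12% of these probes. The probes were not matched to the members for signal level, and whether the spread goes with that level was not tested. PGC-1αf/f 1 was the highest array for 13 of the 31 members, among them Ccl2, Ccl8, Ccl12, Ccl17, Cxcl1, Ccr1, Ccr2 and Cxcr6, with a median deviation of 0.46 from the member means. PGC-1αf/f 5 was the lowest for 7, and nPGC-1α 3 was the highest for Ccl3, Ccl4, Ccl6 and Ccl21a.

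**Figure D5:**
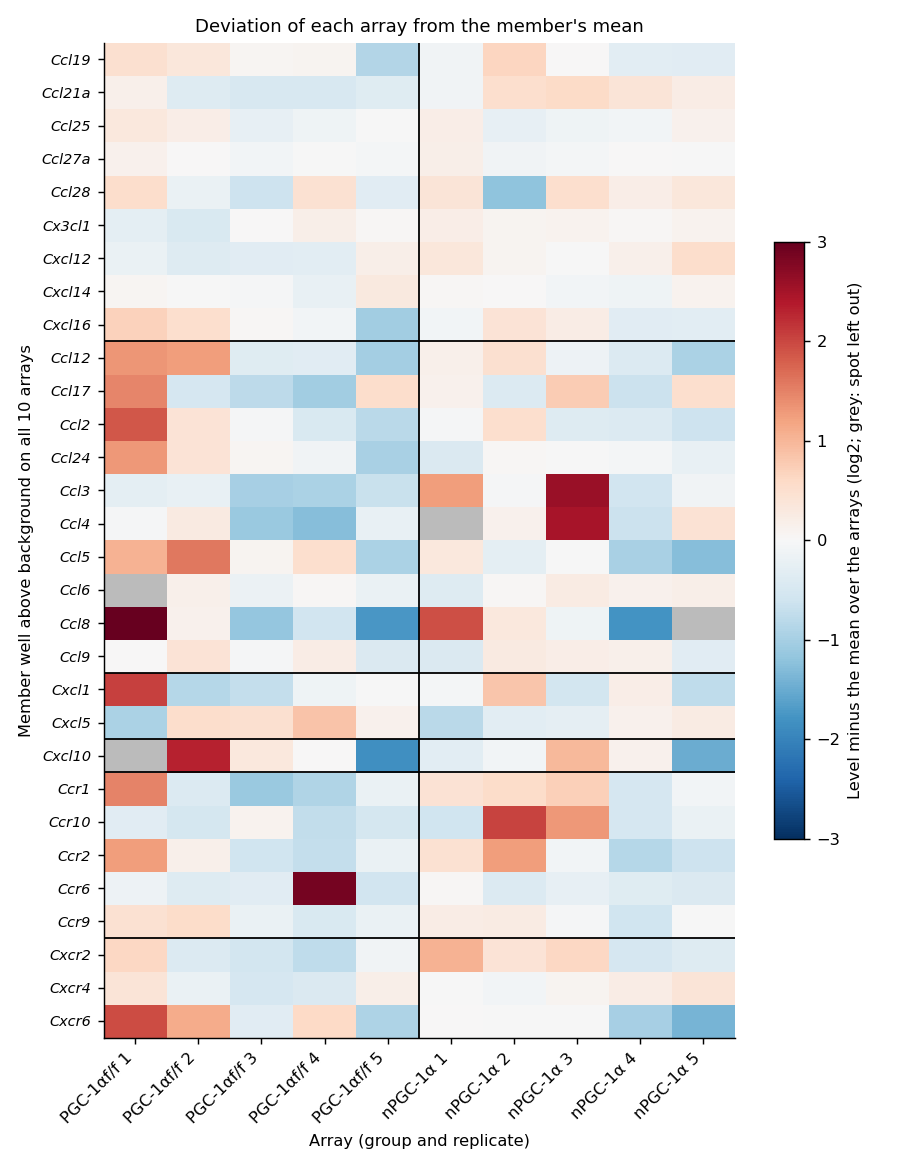
Level of each array minus the member's mean (log2, colour scale from -3 to 3) for 30 of the 31 members detected on every array, ordered by class and separated by group; grey cells are outlier spots left out. PGC-1αf/f 1 is the highest array for 13 members, and nPGC-1α 3 stands out in Ccl3 and Ccl4.

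Ligands and their receptors varied together in some pairs only. Cxcl16 and Cxcr6 correlated at r = 0.78 and rho = 0.76 over 10 arrays (permutation test, adjusted p = 0.0159 and 0.0231; 0.75 without the 2 arrays farthest out). Ccl2 and Ccr2 correlated at r = 0.79 and rho = 0.79 (permutation test, adjusted p = 0.00989 and 0.0149), which rested on PGC-1αf/f 1 and nPGC-1α 2, since it was 0.49 without them. Cxcl12 and Cxcr4 gave r = 0.65 and rho = 0.60 (permutation test, adjusted p = 0.0589 and 0.0864), and Ccl25 and Ccr9 gave r = 0.62 and rho = 0.53 (permutation test, adjusted p = 0.0692 and 0.138). Cx3cl1 and Cx3cr1 gave r = 0.15 and rho = 0.22 (permutation test, adjusted p = 0.697 and 0.564). Endothelial markers correlated with Ccl21a at r = 0.70 and rho = 0.66 (permutation test, adjusted p = 0.0488 and 0.0589; 0.53 without the 2 arrays farthest out) and with Cxcl12 at r = 0.06 and rho = 0.03 (permutation test, adjusted p = 0.87 and 0.946). In all, 20 relations were computed, chosen with earlier results known, and 12 had an adjusted Pearson p below 0.05, among them that of Ccl3 with the partly detected Cxcl2. In these 12, r was 0.65 to 0.96 after the group means were subtracted and 0.71 to 0.98 within slide 1, while slide 2 held too few arrays.

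Among 15 other genes of the chemokine system, 13 were tested, 1 was higher and 0 were lower, beside 3.39% and 8.52% of all probes. Ackr2, a decoy receptor that clears inflammatory CC ligands, had levels of -3.18, -2.63, -2.71, -2.67 and -2.59 on the PGC-1αf/f arrays and of -2.32, -2.48, -2.16, -2.38 and -2.60 on the nPGC-1α arrays, of which array 5 lay within the PGC-1αf/f range. Its difference was 0.37 (SE 0.13, adjusted p = 0.308), with an unadjusted p of 0.0165. The atypical receptor Ccrl2 differed by 0.59 (adjusted p = 0.502), and Dpp4, which cleaves Cxcl12, by 0.45 (adjusted p = 0.576). Adam10 and Adam17, the proteases that shed Cx3cl1, differed by -0.14 and -0.27, with unadjusted p of 0.303 and 0.12.

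Downstream of the receptors, all 25 signalling genes were tested, 0 were higher and 2 were lower, beside 3.39% and 8.52% of all probes, so that the share of lower genes was near that of all probes. Plcb2, a phospholipase activated by G proteins in leukocytes, lay between -4.84 and -4.32 in PGC-1αf/f and between -5.15 and -4.93 in nPGC-1α, without overlap, a difference of -0.42 (SE 0.11, adjusted p = 0.181), with an unadjusted p of 0.00245. A second detected Plcb2 probe differed by -0.23 (adjusted p = 0.578). Dock2, a Rac activator of migrating leukocytes, differed by -0.21 (SE 0.09, adjusted p = 0.403), with an unadjusted p of 0.0422. The brightest probes of Grk2, Arrb2 and Elmo1 differed by -0.06, 0.00 and 0.16, whereas other probes of these genes differed by 0.61, 0.59 and 0.49, with unadjusted p of 0.00399, 0.0207 and 0.0031, so that the probes disagree.

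Of 15 genes of NF-kB and interferon signalling, 13 were tested, 1 was higher and 1 was lower, beside 3.39% and 8.52% of all probes. Tnfaip3, an inhibitor of NF-kB, had a mean of -1.52 ± 0.29 (SD, n = 5) in PGC-1αf/f and -1.22 ± 0.10 (SD, n = 5) in nPGC-1α, and Nfkbia, which holds NF-kB in the cytoplasm, 2.13 ± 0.18 and 1.89 ± 0.05. The difference of Tnfaip3 was 0.30 (SE 0.13, adjusted p = 0.408), with an unadjusted p of 0.0447, and that of Nfkbia was -0.23 (SE 0.10, adjusted p = 0.387), with an unadjusted p of 0.0372. The subunits Nfkb1, Nfkb2, Rela and Relb differed by 0.01, 0.06, 0.10 and 0.01.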

How the data were processed

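The authors deposited the processed intensity of each spot, which Feature Extraction made by subtracting the background and correcting trends across the array, without normalisation between arrays. The file headers give version 11.5.1.1, whereas the methods name another. Median pixel intensities and marks for background and outliers stand beside it in the deposited files. The authors also deposited log2 values of 41606 probes, whose columns correlated with their own arrays at 0.999 to 1.00 and which served as an alternative.

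Control spots and outlier spots were left out, no spot was saturated, spots of 1 probe were averaged, and the log2 of each array's 75th percentile was subtracted from the log2 intensity. A probe was tested if it was detected (marked well above background) on every array of either group and had at least 3 values per group, which held for 39142 of 56605 probes. Symbols came from RefSeq accessions (GRCm38.p6), which named 33767 probes. Groups and replicates came from the labels. Groups were compared by lmFit and eBayes (limma 3.58.1, R 4.3.3), two-sided and with no covariate, with Benjamini-Hochberg adjustment over the probes tested, and p-values of single genes in the text stem from this fit. A difference is the nPGC-1α mean minus the PGC-1αf/f mean, and intervals cover 95%. Array measures used exact permutation tests, and correlations used all orders of 9 arrays or 100000 permutations of 10. A marker list is given as the median, over its tested markers, of the deviation from each marker's mean.

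The text names Ppargc1a, every member detected on all arrays, members with an unadjusted p below 0.05 or without overlap, members detected on all arrays of 1 group and at most 1 of the other, and in the other lists genes with an unadjusted p below 0.05 and at most 3 more by the largest difference. Exceptions are stated, or are partners of a named member, and the results of some genes the rule covers are not reported here. The members and lists were chosen with earlier results of these data known, and lists are described by counts, without a set test. The test was checked on simulated data. The alternatives changed the scaling, the background correction, the source of the log2 values, the filter, the treatment of outlier spots, the block (slide, replicate or Y-linked class), the variance model, the averaging of probes, the test (a rank test) and the arrays used. The number of arrays limits the precision.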

Additional observations from a re-analysis of the deposited data

Results flagged for a closer look

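A single array stood apart from the other 4 of its group in 4 of 68 groups of values checked, where chance alone gives about 3.4. Ccl21a was 1.29 on PGC-1αf/f 1, with the nearest other array of the group at 0.78. Ccl28 was -3.80 on nPGC-1α 2, with the nearest at -2.39. Ccr6 was -1.92 on PGC-1αf/f 4, with the nearest at -4.94. The share of members well above background was 67.3% on PGC-1αf/f 5, with the nearest at 75%.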

How the results depend on the processing

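Against 3 members higher and 2 lower at an unadjusted p below 0.05, the replicate number as a block gave 3 higher and 3 lower, with 0 called at an adjusted p and a median difference of -0.04. Replicates 1 to 4 of both groups shared a column of slide 1, but the labels tie the numbers to no animal or litter, same-numbered arrays correlated at 0.08 to 0.36 in their deviations, and replicates 3 and 4 correlated better with another number, so that the arrays were not treated as pairs. Higher members numbered 8 without a filter on dim probes, among them Ccl1, Ccl20, Ccl22, Cxcl3 and Cxcl15, which were below background on every array. Higher members numbered 2 to 5 when 1 array was left out. Lower members numbered 0 under the rank test, under quantile normalisation and with probes detected on all arrays only, 1 with a common floor, an intensity trend, normexp or the authors' values, 4 within slide 1 or with slide as a block, 14 on the arrays with high Y-linked transcripts, and 0 to 5 when 1 array was left out. The lower members were not always Ccl11 and Cxcr3. Within slide 1 neither passed, with unadjusted p of 0.073 and 0.145. Ccl5 and Cxcr6 did (0.0175 and 0.0414), and the rest lay outside the 34 tested members. With the authors' values neither Ccl11 nor Cxcr3 passed (0.094 and 0.0605), and the lower member lay outside those 34. With slide as a block, the 4 were Ccl11, Cxcr3, Ccl5 and Cxcr6. The replicate block lost Ccl11 (0.0508) and added Ccl5 and Cxcr6. Without PGC-1αf/f 1, 5 members were higher. Without a filter on dim probes, 3 members passed an adjusted p below 0.05 (Ccl21a, Ccl22 and Cxcl15), of which Ccl22 and Cxcl15 were below background on every array, and leaving out 1 array gave 0 to 0. The median difference was -0.64 on the arrays with high Y-linked transcripts, a set whose only PGC-1αf/f array, PGC-1αf/f 1, was the highest for 13 of 31 members, and -0.16 to 0.08 when 1 array was left out. On those 4 arrays Ccl17, Ccr1 and Ccr2 reversed to -0.99, -1.14 and -1.34, each being highest on PGC-1αf/f 1. Without PGC-1αf/f 1 and nPGC-1α 1 and 3, an alternative chosen after seeing the data, 2 members were higher and 2 lower (Cxcr3 and Cxcl5). Ppargc1a passed the threshold in 0 of 26 settings. Signal over background limits the 21 members not detected on every array.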
